A study of Mus musculus with 4 samples.

Results

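The 9 genes described here were grouped under adenosine and ATP handling around CD73: Nt5e, Entpd1, Adora2a, Adora2b, Ada, Adk, Dpp4, P2rx7 and Slc29a1. They were chosen by name, with earlier results of these data known. The non-control probes annotated with these symbols were 15 of 41174 on the array. All 9 genes were among the 19900 genes tested. Mouse lymph node CD4 cells were grown for 4 days on plates coated with anti-CD3 (1 ug/ml) then for 3 days in IL2 at 100 units/ml (IL2), IL2 and TGFb at 4 ng/ml (TGFb), IL2, TGFb and IL6 at 25 ng/ml (TGFb+IL6), or IL2 and IL6 (IL6). Anti-CD3 and IL2 were thus common to every group. On each two-colour array a Treg sample was set against a T-effector sample of the same condition, on 3 arrays for IL2, 3 for TGFb, 4 for TGFb+IL6 and 3 for IL6. The mouse strain and age, and how Treg and T-effector cells were told apart, are not given in the sources used here. The series title gives its subject as the conversion of CD4 cells to Treg cells by TGFb and the block of that conversion by IL6.

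Extracellular ATP is a danger signal that opens the ion channel P2RX7. CD39, the product of Entpd1, cuts ATP and ADP to AMP, and CD73, the product of Nt5e, cuts AMP to adenosine. Both enzymes are known surface proteins of mouse Treg cells, and adenosine that acts on the receptor coded by Adora2a dampens T cell activation. Adenosine is taken up through the equilibrative transporter ENT1 (Slc29a1) and is removed by adenosine deaminase (Ada) and adenosine kinase (Adk).

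Between 38.87% and 69.73% of probes were well above background in the Treg channels and between 41.74% and 66.96% in the T-effector channels, and the number of arrays limits the precision. Whether the arrays within a condition stem from different mice or cultures is not stated, so p-values reflect array-to-array spread alone, which may be technical. Foxp3, which defines Treg cells, exceeded its T-effector signal in the Treg channel of 13 of 13 arrays, by 2.39, 1.95, 2.16 and 2.12 log2 units in IL2, TGFb, TGFb+IL6 and IL6. Of 10 T cell markers, at least 9 were well above background on all arrays of every group. Cd3e was so on every array. Cd4 was dim, and was so on 2 of 3 Treg arrays with TGFb and on 3 of 4 arrays with TGFb+IL6 in each sample type. Markers of other cells were present in part. Those well above background on all arrays of a group numbered 3 to 9 of 11 for B cells, 5 to 7 of 10 for CD8 T and NK cells, 0 to 3 of 13 for myeloid cells and 1 to 3 of 8 for stroma and endothelium, depending on the group. Cdh5 and Kdr of endothelium and Clec9a, Siglech, Csf3r and S100a8 of myeloid cells were among those not well above background anywhere. The summed signal of the 11 B cell markers was 12.64 to 12.77 on the log2 scale in IL2 T-effector samples, 11.48 to 11.96 in TGFb, 10.76 to 11.68 in TGFb+IL6 and 11.27 to 11.39 in IL6. In Treg samples it was 12.41 to 12.85, 13.22 to 13.34, 12.33 to 12.50 and 12.11 to 12.31. The CD8 T and NK cell list was 12.34 to 12.90 in IL2 Treg samples, 13.31 to 13.63 in TGFb, 12.97 to 13.21 in TGFb+IL6 and 11.89 to 12.80 in IL6. In T-effector samples it was 12.81 to 13.13, 13.03 to 13.16, 12.37 to 12.59 and 12.50 to 12.69. The myeloid list was 9.76 to 10.78 and the stromal and endothelial list 9.32 to 9.62 over all samples. In the groups with TGFb or TGFb+IL6, 3 to 6 of the 11 B cell markers were well above background on all arrays, while Pax5 and Ebf1 were so on none. TGFb against IL2 in Treg samples called Ighm higher and 4 other B cell markers lower. In T-effector samples it called 7 of the 10 tested B cell markers lower, Ighm among them, and 0 higher. Of 9 tested CD8 T and NK cell markers it called 3 higher in Treg samples (Cd8a, Klrd1 and Nkg7) and 0 lower. In T-effector samples it called 0 of these higher and 1 lower (Prf1). B cells and endothelium also make CD73, and the part of these cells in the results was not tested. In such bulk samples, fewer cells of a type and less RNA per cell cannot be told apart.

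Signals are given below as background-corrected, normalized log2 values per channel, and a difference of 1 is 2-fold. An offset of 50 was added to every signal, so folds of dim probes are understated. A gene is called changed where its Benjamini-Hochberg adjusted p over all genes, from the moderated test of limma, was under 0.05. The arrays lay on 5 slides, A to E, and slide D held 1 array each of IL2, TGFb and TGFb+IL6. Slide E held arrays of TGFb, TGFb+IL6 and IL6, slide B of TGFb and TGFb+IL6, slide A of IL2 and IL6, and slide C 1 IL2 array.

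Nt5e was the member with the largest change. With TGFb its signal rose 13.9-fold in Treg samples and 14.6-fold in T-effector samples, and with IL6 also present TGFb was still accompanied by a 10.7-fold and a 19.03-fold higher signal than IL6 alone. The tested probe, A_52_P574668, lies at mm7 chr9:88472705-88472764. The 250 bases before the RefSeq start of Nt5e are shown beside those of Entpd1, the other ectoenzyme that rose with TGFb. The signals were measured by the probes and not at these windows, and a link of these sequences to the changes was not tested. The letters are from RefSeq on GRCm38.p6, at chr9:88327359-88327608 for Nt5e and at chr19:40612116-40612365 and chr19:40659520-40659769 for the 2 starts of Entpd1, all on the plus strand. Capitals mark the Smad-type motif CAGAC, read as GTCTG on the other strand.
Nt5e: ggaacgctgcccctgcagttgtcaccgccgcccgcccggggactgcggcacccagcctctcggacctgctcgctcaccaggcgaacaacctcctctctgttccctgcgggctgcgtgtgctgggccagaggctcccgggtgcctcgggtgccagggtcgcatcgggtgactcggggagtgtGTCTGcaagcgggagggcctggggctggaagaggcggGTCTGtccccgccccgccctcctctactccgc
Entpd1, upstream start: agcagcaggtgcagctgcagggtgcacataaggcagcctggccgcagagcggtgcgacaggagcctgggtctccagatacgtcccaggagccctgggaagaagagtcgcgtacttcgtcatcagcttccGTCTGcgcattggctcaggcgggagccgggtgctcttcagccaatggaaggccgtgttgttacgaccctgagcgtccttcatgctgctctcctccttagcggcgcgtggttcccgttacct
Entpd1, downstream start: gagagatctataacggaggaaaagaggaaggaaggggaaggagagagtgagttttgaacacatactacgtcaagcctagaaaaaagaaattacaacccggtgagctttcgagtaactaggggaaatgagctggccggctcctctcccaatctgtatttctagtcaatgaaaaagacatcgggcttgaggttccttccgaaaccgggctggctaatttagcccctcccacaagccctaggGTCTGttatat
The Nt5e window held 2 matches, which begin 69 and 32 bases before the start. The Entpd1 windows held 1 match each, at 121 and 11 bases. On both strands, CAGAC is found in 42.2% of 32851 promoter windows of this length. The Stat-type motif TTCNNNGAA, found in 7.02% of the windows, was not in these 3, so the motifs do not overlap there. RefSeq windows were matched for 8 of the 9 members, and 12 of their 18 windows held CAGAC. Slc29a1 alone gave 8 of the 18 windows and 5 of the 12, and the windows of Adk (2) and Dpp4 (1) held none.

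In Treg samples the Nt5e signal was 8.33, 7.09 and 7.10 on the 3 IL2 arrays and 7.56, 8.84 and 7.05 on the 3 IL6 arrays. It was 11.20, 11.23 and 11.55 with TGFb and 11.28, 11.13, 11.57 and 10.94 with TGFb+IL6. All 7 Treg samples with TGFb thus lay above all 6 without it, and the highest values without TGFb, 8.33 and 8.84, were the 2 arrays of slide A. In T-effector samples the signal was 7.10, 6.94 and 7.05 with IL2, 6.94, 6.90 and 6.42 with IL6, 11.12, 10.77 and 10.75 with TGFb, and 11.60, 10.86, 11.06 and 10.54 with TGFb+IL6. The 2 sets did not overlap here either. TGFb against IL2 gave 3.80 ± 0.37 (SE, 3 against 3 arrays) in Treg samples (limma, adjusted p = 3.68e-07) and 3.87 ± 0.37 in T-effector samples (adjusted p = 9.74e-07). TGFb+IL6 against IL6 gave 3.43 ± 0.35 in Treg samples (adjusted p = 4.21e-07) and 4.25 ± 0.35 in T-effector samples (adjusted p = 1.91e-08). With slide as a block the 4 differences were 4.22, 4.29, 3.88 and 4.70. Within slide D, TGFb exceeded IL2 by 4.46 in Treg and by 3.81 in T-effector samples. Within slide E, TGFb+IL6 exceeded IL6 by 3.72 and 4.66. Over all 27 alternatives the 4 differences were called and ranged from 3.37 to 4.58, 3.39 to 4.67, 2.46 to 3.93 and 3.79 to 5.43. The 2.46 came from leaving out the 4 arrays of slide E, and 5.43 from Agilent's processed signals.

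The differences of Nt5e made by IL6 were small beside those made by TGFb. TGFb+IL6 against TGFb was -0.09 ± 0.35 in Treg and 0.12 ± 0.35 in T-effector samples, and IL6 against IL2 was 0.29 ± 0.37 and -0.26 ± 0.37, none of them called. The signals overlapped in all of these but IL6 against IL2 in T-effector samples, where the IL6 arrays lay at or below the lowest IL2 array. The test of whether the TGFb effect differed with IL6 gave -0.37 ± 0.51 in Treg samples (limma, adjusted p = 0.957) and 0.38 ± 0.51 in T-effector samples (adjusted p = 0.966). The second Nt5e probe, A_51_P156740 (mm7 chr9:88470130-88471096), was dim. It was well above background on 2 of 3 TGFb arrays and on 3 of 4 TGFb+IL6 arrays in each sample type, and on none of the IL2 and IL6 arrays. Its TGFb signal was at least 1.88-fold that of IL2 in Treg samples and at least 1.69-fold in T-effector samples, and TGFb+IL6 was at least 1.37-fold and 1.41-fold that of IL6. These bounds set the mean of the bright group against, per array, the higher of the lowest signal well above background and the probe's own signal.

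**Figure D1:**
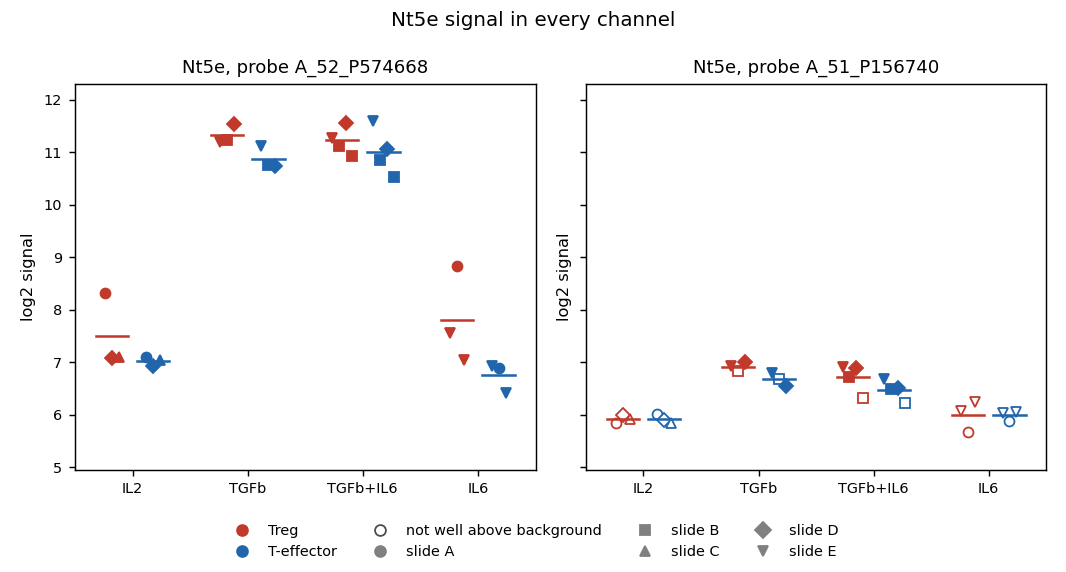
Nt5e log2 signal (vertical axis) in each channel of the 13 arrays by condition, for both probes, with Treg in red, T-effector in blue, the slide as the symbol and horizontal bars at the means. On the left, every point with TGFb lies between 10.54 and 11.60 and every point without it between 6.42 and 8.84; open points on the right were not well above background.

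Over the 9 genes, TGFb against IL2 gave calls for 5 in Treg samples (4 higher, 1 lower), where 7.74% of all genes were called, and for 3 in T-effector samples (2 higher, 1 lower), where 4.32% were. TGFb+IL6 against IL6 gave 5 in Treg samples (3 higher, 2 lower; 10.1% of all genes) and 6 in T-effector samples (3 higher, 3 lower; 11.1%). IL6 added to TGFb gave 2 in Treg samples (1 higher, 1 lower; 5.6%) and 4 in T-effector samples (2 higher, 2 lower; 7.42%). IL6 against IL2 gave 1 in each, lower in Treg samples (0.945%) and higher in T-effector samples (0.794%). Of all 19900 genes, limma called 184 (0.925%) in Treg samples and 195 (0.98%) in T-effector samples for the interaction of TGFb and IL6, a contrast added after the data were seen. It called 0 of the 9 genes in both, with an unadjusted p under 0.05 for 4 and 5 of them. Because the 9 genes were chosen with earlier results of these data known, their counts cannot be read as an excess over all genes. These comparisons share samples: TGFb arrays enter the first and the third, and IL6 arrays the second and the fourth. The median difference over the 9 genes in Treg samples was 0.40 for TGFb against IL2, against -0.01 over all genes, and in T-effector samples 0.20 against 0.01. For TGFb+IL6 against IL6 the medians were 0.19 in Treg and -0.10 in T-effector samples, for IL6 added to TGFb -0.09 and -0.23, and for IL6 against IL2 0.23 and 0.11, with those of all genes between -0.03 and 0.01. Nt5e, Adk and Slc29a1 were called in the same direction in both sample types with TGFb alone. Adk, Dpp4, Entpd1, Nt5e and P2rx7 were with TGFb+IL6 against IL6.

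**Figure D2:**
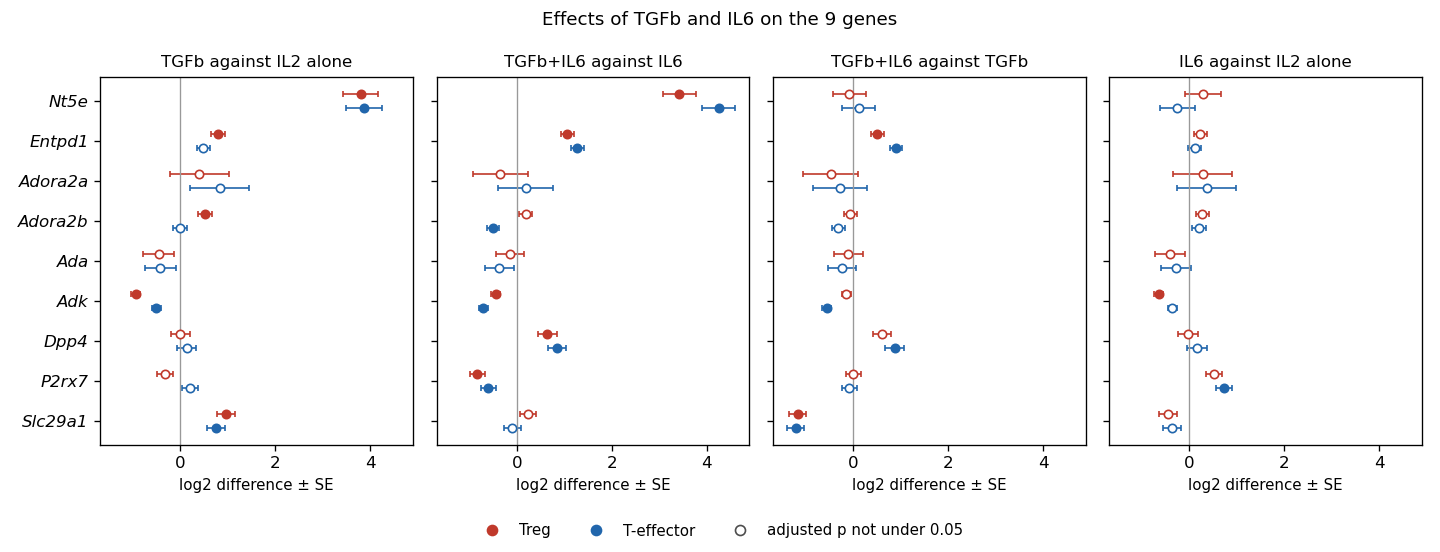
Log2 difference between conditions (horizontal axis, estimate ± SE from the separate-channel limma fit) for the 9 genes in Treg (red) and T-effector (blue) samples, with filled points at an adjusted p under 0.05. Nt5e stands at 3.80 and 3.87 for TGFb against IL2 alone, while the estimates of the other 8 genes lie between -1.21 and 1.28 in all 4 panels.

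Entpd1, the gene of CD39, rose with TGFb and rose further when IL6 was added. Its tested probe is A_51_P504337 (mm7 chr19:40633542-40633601), and its signals were low, with 23 of 26 channels well above background. The Treg samples read 6.78, 6.53 and 6.43 with IL2, 7.01, 6.51 and 6.90 with IL6, 7.35, 7.43 and 7.33 with TGFb, and 7.91, 7.98, 7.70 and 7.93 with TGFb+IL6. The T-effector samples read 6.19, 6.18 and 6.25 with IL2, 6.35, 6.38 and 6.22 with IL6, 6.75, 6.87 and 6.46 with TGFb, and 7.52, 7.66, 7.45 and 7.74 with TGFb+IL6. The TGFb+IL6 samples lay above all others of their type, and the TGFb samples came next without overlap. On 1 IL2 array in each sample type and on 1 TGFb array in T-effector samples the probe was not well above background.

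TGFb against IL2 raised Entpd1 by 0.79 ± 0.14 in Treg samples (1.73-fold, limma adjusted p = 0.000784), and the T-effector difference of 0.48 ± 0.14 was not called (adjusted p = 0.0593). With IL6 present TGFb raised it by 1.07 ± 0.13 (2.098-fold, adjusted p = 7.17e-06) and by 1.28 ± 0.13 (2.42-fold, adjusted p = 6.78e-07). Adding IL6 to TGFb raised it by 0.90 ± 0.13 in T-effector samples (1.87-fold, adjusted p = 9.84e-05). In Treg samples the addition gave 0.51 ± 0.13 (1.42-fold, adjusted p = 0.0231). That last call was lost, at 0.48 to 0.54, when any 1 of the 3 TGFb arrays or TGFb+IL6 array 1, 2 or 4 was left out. Within slides E, B and D the Treg step was 0.56, 0.55 and 0.37 and the T-effector step 0.77, 0.79 and 0.99. IL6 without TGFb gave 0.23 ± 0.14 and 0.11 ± 0.14, not called. The interaction in T-effector samples was 0.79 ± 0.20 (SE) and missed the threshold (adjusted p = 0.0568). In Treg samples it was 0.28 ± 0.20. The second probe, A_52_P21835 (mm7 chr19:40634549-40634608), was well above background in 11 of 26 channels. Fitted over all probes, its Treg difference of TGFb against IL2 was 0.40 ± 0.16 and was not called. Its T-effector step from TGFb to TGFb+IL6 was 0.75 ± 0.15 and was called, and its Treg step was 0.43 ± 0.15 and was not. Its T-effector signal with TGFb+IL6 was at least 1.69-fold that with TGFb.

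Of the adenosine receptors, Adora2a, the high-affinity one, had 2 probes that gave different results. The tested one, A_52_P240878 (mm7 chr10:74988878-74988937), followed the slide. It lay between 9.42 and 10.47 in the 12 channels of slides A, B and C and between 10.68 and 12.05 in the 14 channels of slides D and E, in every condition. Cd3e, which codes for a chain of the T cell receptor complex, had ranges of 8.67 to 9.21 and 9.29 to 10.21 on the same slides. The Treg means of the tested Adora2a probe were 10.78 ± 1.02 (SD, n = 3) with IL2, 11.08 ± 0.87 (n = 3) with TGFb, 10.66 ± 1.17 (n = 4) with TGFb+IL6 and 10.96 ± 0.79 (n = 3) with IL6. No condition stood apart from the others beyond this spread, and none of its comparisons was called.

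The second Adora2a probe, A_51_P387348 (mm7 chr10:74990257-74990317), was well above background in all 26 channels and spanned 6.94 to 8.10 on slides A to C and 6.71 to 7.80 on D and E. In Treg samples it read 7.51, 7.48 and 8.10 with IL2 and 7.74, 7.97 and 7.64 with IL6, against 6.92, 7.12 and 6.71 with TGFb and 6.93, 6.96, 6.76 and 7.21 with TGFb+IL6. Here the 7 Treg samples with TGFb lay below the 6 without. TGFb against IL2 was -0.81 ± 0.18 in Treg samples (limma over all probes, adjusted p = 0.00616) and -0.33 ± 0.18 in T-effector samples, not called. The same probe gave, for TGFb+IL6 against IL6, -0.80 ± 0.17 (adjusted p = 0.00317) and -0.59 ± 0.17 (adjusted p = 0.0278). The tested probe gave 0.40 ± 0.62, 0.83 ± 0.62, -0.34 ± 0.58 and 0.19 ± 0.58 for the same 4 differences, none of them called. Both probes were negative for TGFb+IL6 against IL6 in Treg samples, and their signs differed in the others. With these SEs the tested probe does not settle a direction. Within slide D, TGFb against IL2 in Treg samples was -0.22 on the tested probe and -0.77 on the second.

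Adora2b, the gene of the low-affinity receptor, was higher in Treg samples with TGFb than with IL2 and lower in T-effector samples with TGFb+IL6 than with IL6. Its probe A_52_P419455 lies at mm7 chr11:62347152-62347211. The Treg samples read 7.22, 7.46 and 7.30 with IL2, 7.57, 7.19 and 7.92 with IL6, 7.77, 7.83 and 7.82 with TGFb, and 7.84, 7.80, 7.80 and 7.64 with TGFb+IL6. In T-effector samples it read 7.30, 7.43 and 7.54 with IL2, 7.74, 7.64 and 7.59 with IL6, 7.70, 7.42 and 7.28 with TGFb, and 7.28, 7.26, 6.89 and 7.12 with TGFb+IL6. The 4 T-effector samples with TGFb+IL6 lay below those with IL6, and the Treg samples with TGFb lay above those with IL2. TGFb against IL2 in Treg samples was 0.52 ± 0.15 (1.43-fold, limma adjusted p = 0.0303). With slide as a block this was 0.38 and not called, and it was not called at 0.49 to 0.56 when any 1 of the 3 IL2 or 3 TGFb arrays was left out. In T-effector samples it was 0.00 ± 0.15. TGFb+IL6 against IL6 in T-effector samples was -0.50 ± 0.14 (adjusted p = 0.0194), a call lost without TGFb+IL6 array 3 (-0.44) or IL6 array 1 (-0.48).

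Adk, which phosphorylates adenosine to AMP inside the cell, had 10 calls, the most of any member. Its probe A_51_P130666 lies at mm7 chr14:19107086-19107145. In Treg samples it read 11.44, 11.51 and 11.74 with IL2, 11.04, 10.87 and 10.84 with IL6, 10.62, 10.68 and 10.57 with TGFb, and 10.43, 10.42, 10.55 and 10.49 with TGFb+IL6. The T-effector samples read 11.91, 11.92 and 12.05 with IL2, 11.48, 11.60 and 11.71 with IL6, 11.37, 11.52 and 11.46 with TGFb, and 10.88, 10.90, 10.93 and 10.86 with TGFb+IL6. IL2 was thus highest and TGFb+IL6 lowest in both sample types without overlap, and IL6 and TGFb overlapped in T-effector samples only. TGFb against IL2 fell by 0.94 ± 0.10 in Treg samples (limma adjusted p = 9.19e-07) and by 0.50 ± 0.10 in T-effector samples (adjusted p = 0.00368). IL6 against IL2 fell by 0.65 ± 0.10 in Treg samples (adjusted p = 0.00112), and the T-effector difference of -0.36 ± 0.10 was not called (adjusted p = 0.14). IL6 added to TGFb lowered Adk by 0.56 ± 0.09 in T-effector samples (adjusted p = 0.000358), while in Treg samples the difference was -0.15 ± 0.09 (adjusted p = 0.511). From IL6 to TGFb+IL6 the differences were -0.44 ± 0.09 and -0.70 ± 0.09, both called. The interaction in Treg samples was 0.51 ± 0.14 and was not called (adjusted p = 0.0989).

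Ada, the deaminase that turns adenosine into inosine, gave no call in any of the comparisons. Its probe A_51_P430423 (mm7 chr2:163467735-163467794) varied within conditions, from 9.48 to 10.34 for Treg and from 9.90 to 10.30 for T-effector with IL2, and from 8.80 to 9.96 in T-effector samples with TGFb. The means in Treg samples were 9.92 ± 0.43 (SD, n = 3) with IL2, 9.57 ± 0.41 (n = 3) with TGFb, 9.42 ± 0.29 (n = 4) with TGFb+IL6 and 9.62 ± 0.27 (n = 3) with IL6. In T-effector samples they were 10.08 ± 0.20, 9.55 ± 0.65, 9.37 ± 0.58 and 9.69 ± 0.45. The 3 lowest T-effector values, 8.80, 8.52 and 9.18, were array 1 of TGFb, TGFb+IL6 and IL6, all on slide E.

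Dpp4 codes for CD26, a surface peptidase known in humans as an anchor for adenosine deaminase. It was highest where TGFb and IL6 were combined. The tested probe, A_51_P467110 (mm7 chr2:62262554-62262613), read 9.31, 8.47 and 8.83 in Treg samples with IL2, 8.72, 9.48 and 8.41 with IL6, 8.86, 8.84 and 9.02 with TGFb, and 9.51, 9.44, 9.47 and 9.56 with TGFb+IL6. In T-effector samples it read 8.72, 8.69 and 8.97, then 8.89, 8.97 and 8.89, then 8.80, 8.98 and 8.88, and 9.78, 9.89, 9.67 and 9.78 in the same order. All 4 T-effector samples with TGFb+IL6 lay above the other 9. Among Treg samples the 2 of slide A, 9.31 and 9.48, stood above the other samples without TGFb, and 9.48 fell within the TGFb+IL6 range.

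Adding IL6 to TGFb raised Dpp4 by 0.87 ± 0.19 in T-effector samples (1.83-fold, limma adjusted p = 0.00538). The Treg difference of 0.61 ± 0.19 was not called (adjusted p = 0.0719), but was with the replicate number as a block, at 0.635. Within slides E, B and D the Treg step was 0.65, 0.60 and 0.45 and the T-effector step 0.98, 0.91 and 0.79. TGFb+IL6 against IL6 gave 0.84 ± 0.19 in T-effector samples (adjusted p = 0.00547) and 0.65 ± 0.19 in Treg samples (adjusted p = 0.0356). The Treg call rested on few arrays: it was lost, at 0.42 to 0.66, without any 1 of TGFb array 1, TGFb+IL6 array 1, 3 or 4 or IL6 array 1 or 3, and was 0.05 without slide E. TGFb alone against IL2 gave 0.00 ± 0.21 and 0.13 ± 0.21. The second probe, A_52_P443578 (mm7 chr2:62262594-62262653), which overlaps the first in position, gave 0.63 ± 0.14 for IL6 added to TGFb in T-effector samples, called over all probes, and 0.42 ± 0.14 in Treg samples, not called. The third, A_52_P417368 (mm7 chr2:62285128-62287194), was well above background in 8 of 26 channels.

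Slc29a1, the gene of the equilibrative transporter ENT1, rose with TGFb, and IL6 added to TGFb lowered it again. Its probe is A_51_P289836 (mm7 chr17:43714823-43714882). The Treg samples read 10.36, 10.39 and 10.10 with IL2, 11.29, 11.28 and 11.19 with TGFb, 10.13, 10.17, 10.33 and 9.68 with TGFb+IL6, and 9.55, 10.19 and 9.79 with IL6. The T-effector samples read 10.61, 10.62 and 10.80 with IL2, 11.69, 11.26 and 11.27 with TGFb, 10.49, 10.05, 10.31 and 9.96 with TGFb+IL6, and 10.33, 10.22 and 10.33 with IL6. The TGFb samples stood above all others of their type. TGFb against IL2 gave 0.96 ± 0.19 in Treg samples (1.95-fold, limma adjusted p = 0.00181) and 0.74 ± 0.19 in T-effector samples (1.68-fold, adjusted p = 0.0243). IL6 added to TGFb lowered it by 1.17 ± 0.18 (2.25-fold, adjusted p = 0.000125) and by 1.21 ± 0.18 (2.315-fold, adjusted p = 7.62e-05). From IL6 to TGFb+IL6 the differences were 0.24 ± 0.18 and -0.10 ± 0.18, not called. The interaction, -0.72 ± 0.26 in Treg and -0.84 ± 0.26 in T-effector samples, was not called over all genes (adjusted p = 0.363 and 0.193). Within slides E, B and D the Treg step from TGFb to TGFb+IL6 was -1.16, -1.11 and -0.85 and the T-effector step -1.20, -1.21 and -0.97. The T-effector rise with TGFb was not called with slide as a block (0.85), nor without IL2 array 1 or 2 or TGFb array 1 or 3, at 0.60 to 0.84.

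P2rx7, the gene of the ATP-gated channel, had its highest mean signal with IL6 in both sample types. Its probe is A_52_P393314 (mm7 chr5:121918407-121918466). In Treg samples it read 8.06, 8.21 and 8.14 with IL2, 8.70, 8.15 and 9.01 with IL6, 7.81, 7.98 and 7.58 with TGFb, and 7.77, 7.87, 7.64 and 7.93 with TGFb+IL6. In T-effector samples it read 7.42, 7.08 and 7.38 with IL2, 8.03, 8.0 and 8.11 with IL6, 7.50, 7.74 and 7.34 with TGFb, and 7.29, 7.62, 7.19 and 7.60 with TGFb+IL6. Treg samples with TGFb lay below those without it, and T-effector samples with IL6 lay above all other T-effector samples. P2rx7 with TGFb+IL6 was below that with IL6, and fell by 0.83 ± 0.16 in Treg samples (limma adjusted p = 0.00105) and by 0.60 ± 0.16 in T-effector samples (adjusted p = 0.0147). The first was -0.39 and not called without slide E. The second was lost, at -0.54 to -0.56, without TGFb+IL6 array 1 or 3 or IL6 array 3. IL6 against IL2 raised it by 0.72 ± 0.17 in T-effector samples (1.65-fold, adjusted p = 0.0466), a call kept in 6 of 27 alternatives, and not with slide as a block (0.58). In Treg samples the difference was 0.51 ± 0.17, not called. TGFb against IL2 was -0.32 ± 0.17 and 0.20 ± 0.17, neither called. The second probe, A_51_P506733 (mm7 chr5:121904741-121907626), was well above background in 2 of 26 channels and was not tested.

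**Figure D3:**
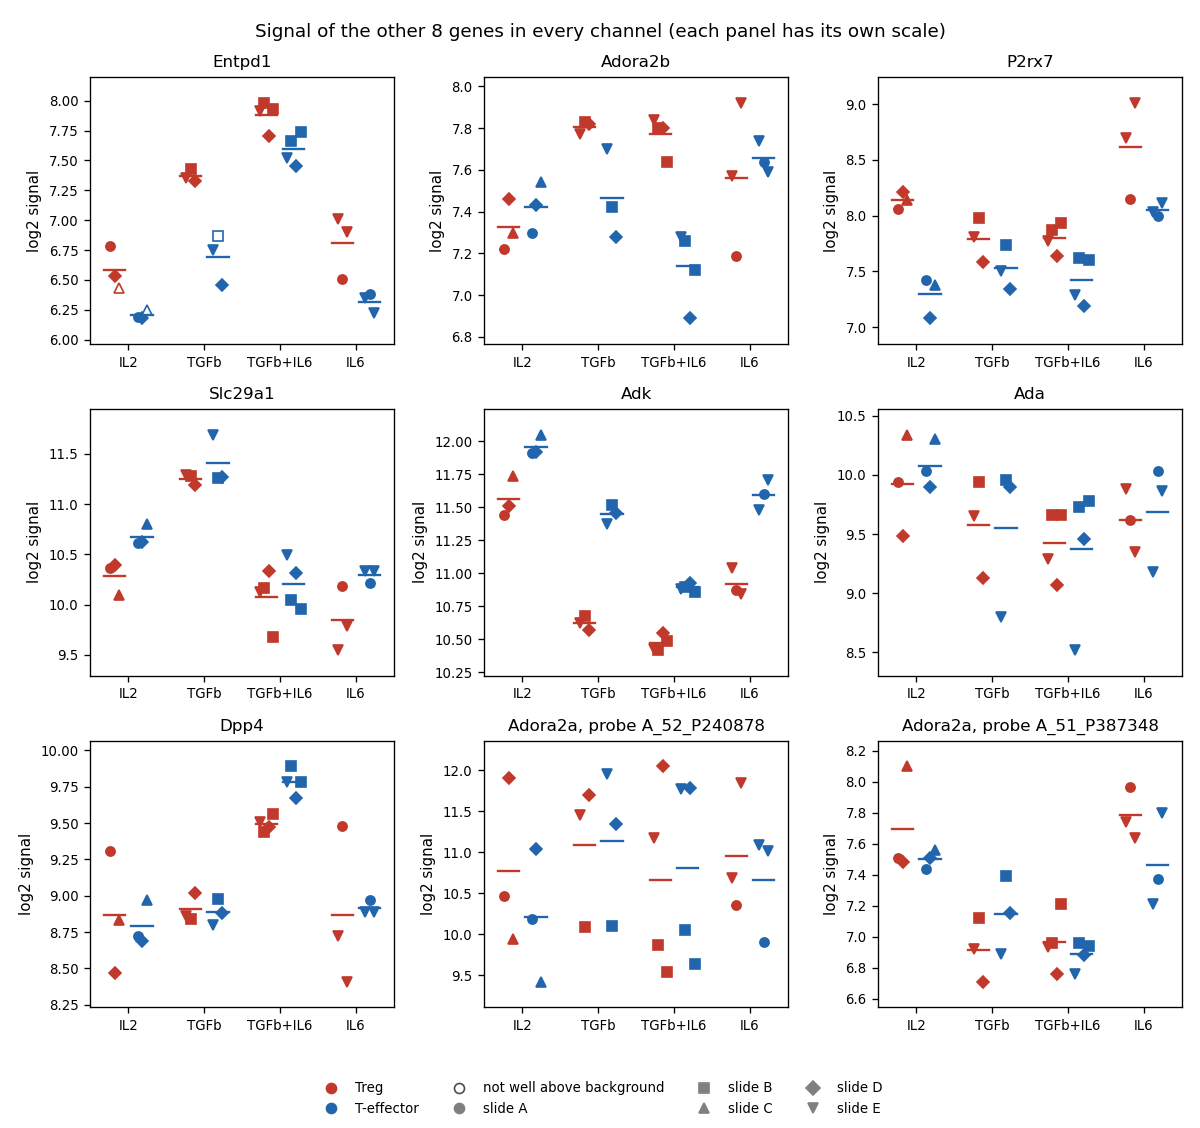
Log2 signal (vertical axis, scaled per panel) of the tested probe of 7 genes and of both Adora2a probes in every channel by condition, with Treg in red, T-effector in blue, the slide as the symbol and bars at the means. Slc29a1 is high in the TGFb samples (11.19 to 11.69), Adk steps down from IL2 (11.44 to 12.05) to TGFb+IL6 (10.42 to 10.93), and the first Adora2a probe splits by slide.

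The ratio of Treg to T-effector signal was measured within each array. It still varied with slide, with a correlation of 0.367 between the ratios of arrays on 1 slide. With IL2, 2 of the 9 genes were called (P2rx7 higher, Adk lower), where 11% of all genes were. With TGFb it was 2 (Entpd1 higher, Adk lower; 5.97% of all genes), with TGFb+IL6 2 (Adora2b higher, Adk lower; 5.84%) and with IL6 3 (Entpd1 and P2rx7 higher, Adk lower; 5.84%). The median log2 ratios of the 9 genes were 0.12, 0.04, 0.05 and -0.05, beside 0.02, -0.01, -0.02 and 0.01 over all genes.

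Adk was lower in Treg than in T-effector on 13 of 13 arrays. Its log2 ratios were -0.47, -0.41 and -0.31 with IL2, -0.75, -0.84 and -0.88 with TGFb, -0.45, -0.48, -0.37 and -0.37 with TGFb+IL6, and -0.44, -0.73 and -0.87 with IL6. The TGFb arrays lay below all IL2 and TGFb+IL6 arrays. The fitted ratios were -0.39 ± 0.09 (limma adjusted p = 0.0179), -0.83 ± 0.09 (adjusted p = 0.000252), -0.42 ± 0.07 (adjusted p = 0.00823) and -0.68 ± 0.09 (adjusted p = 0.0015) in the same order. The IL2 call was lost without IL2 array 1 (-0.33) or 2 (-0.39), and the TGFb+IL6 call without TGFb+IL6 array 1 (-0.40) or 2 (-0.39). With median centring in place of loess, the TGFb ratio (-0.68) and the TGFb+IL6 ratio (-0.48) were not called, and the IL2 and IL6 ratios were -1.396 and -1.744, both called.

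The tested probes of Entpd1 and P2rx7 were higher in Treg on 13 of 13 arrays, and the second Entpd1 probe on 10 of 13. The Entpd1 ratios were 0.60, 0.34 and 0.18 with IL2, 0.60, 0.56 and 0.87 with TGFb, 0.39, 0.32, 0.24 and 0.19 with TGFb+IL6, and 0.66, 0.14 and 0.68 with IL6. The TGFb arrays lay above the TGFb+IL6 arrays without overlap. The fitted ratio was 0.68 ± 0.12 with TGFb (1.60-fold, limma adjusted p = 0.00742), and this call was lost at 0.54 without TGFb array 3 and at 0.27 when the background model used all spots. With IL6 it was 0.49 ± 0.12 (adjusted p = 0.0366). That call was kept in 14 of 27 alternatives; it was lost with the replicate number as a block (0.483), with slide as a block (0.44), without slide E (0.10) and, at 0.36 to 0.50, without any 1 of IL2 array 2, TGFb array 3, the 4 TGFb+IL6 arrays or IL6 arrays 1 and 3. With IL2 and TGFb+IL6 it was 0.37 ± 0.12 and 0.29 ± 0.10, not called. The second probe gave 0.21, 0.36, 0.04 and 0.20 in IL2, TGFb, TGFb+IL6 and IL6, none of them called.

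The P2rx7 ratios were 0.64, 1.13 and 0.76 with IL2, 0.31, 0.25 and 0.23 with TGFb, 0.48, 0.25, 0.45 and 0.33 with TGFb+IL6, and 0.67, 0.15 and 0.90 with IL6. All 3 IL2 arrays lay above all 7 arrays with TGFb. The fitted ratio was 0.81 ± 0.12 with IL2 (1.76-fold, limma adjusted p = 0.00266) and 0.60 ± 0.12 with IL6 (1.52-fold, adjusted p = 0.0174). The IL2 call was lost at 0.29 with median centring in place of loess and at 0.48 when the background model used all spots. The IL6 call was lost without IL6 array 1 (0.53) or 3 (0.45) and without slide E (0.23). With median centring this ratio was -0.08 ± 0.18 and was not called. The ratios with TGFb and TGFb+IL6, 0.29 ± 0.12 and 0.38 ± 0.10, were not called.

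Nt5e was higher in Treg on 12 of 13 arrays, and none of its ratios was called. They were 1.23, 0.15 and 0.05 with IL2, 0.08, 0.46 and 0.79 with TGFb, -0.32, 0.27, 0.51 and 0.40 with TGFb+IL6, and 0.62, 1.94 and 0.62 with IL6. The values of 1.23 and 1.94 were the 2 arrays of slide A. The fitted ratio with IL6 was 1.04 ± 0.29 (2.06-fold, limma adjusted p = 0.0568). It was called with slide as a block (1.17) and with the replicate number as a block (0.955), and it was 0.62 and not called without IL6 array 2. The ratios in IL2, TGFb and TGFb+IL6 were 0.50 ± 0.29, 0.42 ± 0.29 and 0.22 ± 0.25.

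Adora2b ratios were -0.08, 0.04 and -0.24 with IL2, 0.07, 0.41 and 0.54 with TGFb, 0.56, 0.54, 0.91 and 0.52 with TGFb+IL6, and -0.17, -0.45 and 0.33 with IL6. The 4 arrays with TGFb+IL6 lay above all IL2 and all IL6 arrays. The fitted ratio with TGFb+IL6 was 0.63 ± 0.10 (1.55-fold, limma adjusted p = 0.00528) and was not called without TGFb+IL6 array 3 (0.58). Slc29a1 was lower in Treg on 10 of 13 arrays, Dpp4 and Ada on 9 of 13, and Adora2a on 6 of 13, and none of these had a called ratio.

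**Figure D4:**
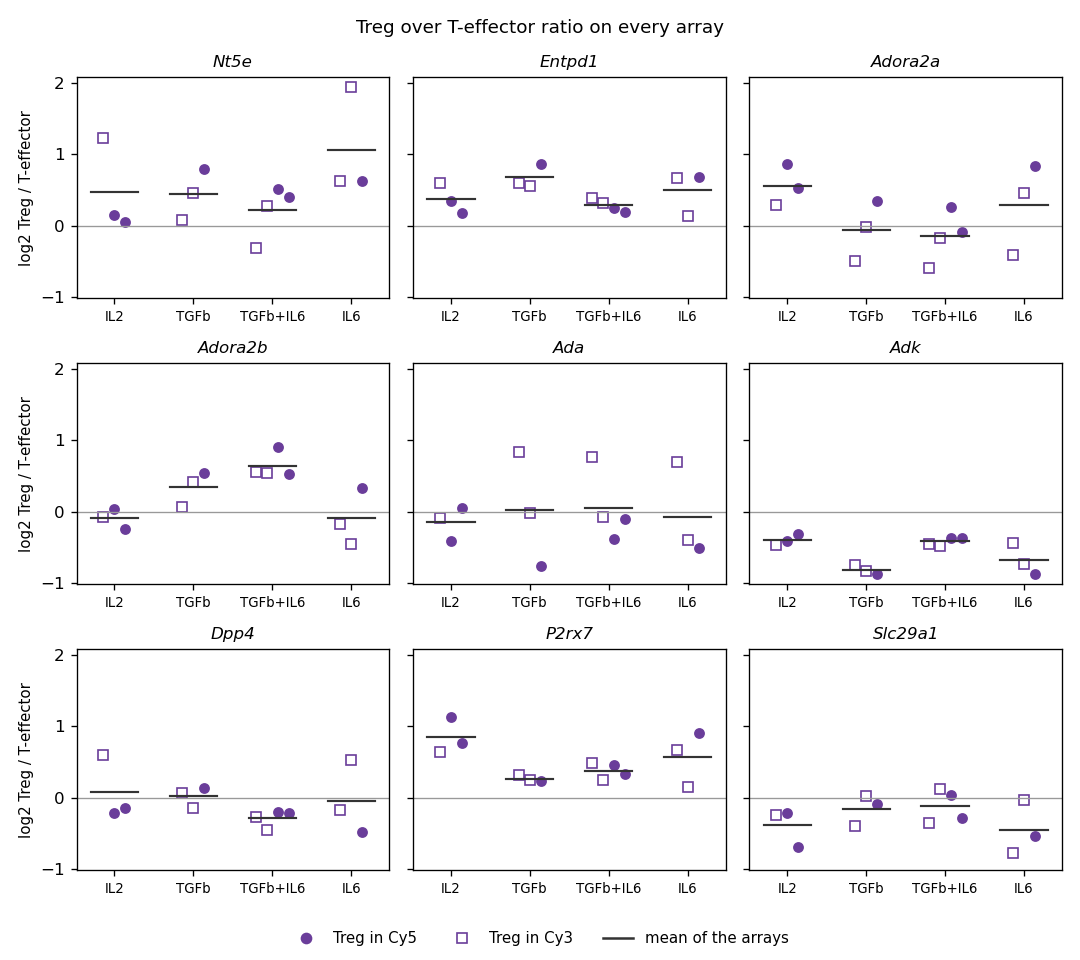
Log2 ratio of Treg over T-effector signal (vertical axis) of the 9 genes on each of the 13 arrays by condition, with the mean of the arrays as a bar and the dye of the Treg sample as the symbol. All Adk points lie below 0, all Entpd1 and P2rx7 points above 0, and the highest Nt5e points are 1.23 and 1.94.

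The test of the difference itself gave fewer calls. For the change of the ratio from IL2 to TGFb, limma called 0 of the 9 genes, 3 with an unadjusted p under 0.05, where 5.86% of all genes were called. With slide as a block it called 2 of them, Adk (-0.45) and P2rx7 (-0.65). With no slide term these were -0.44 ± 0.13 (adjusted p = 0.0621) and -0.52 ± 0.18 (adjusted p = 0.1). Over the 27 alternatives they ranged from -0.51 to 0.71 for Adk and from -0.69 to 0.15 for P2rx7, so the sign of both depended on the processing. For TGFb+IL6 against TGFb it called 0 of 9, 2 with an unadjusted p under 0.05, and 0.291% of all genes. For IL6 against IL2 it called 0 of 9, 1 with an unadjusted p under 0.05 (Adk, -0.29 ± 0.13), and 0% of all genes (683 with an unadjusted p under 0.05, and 6 called with slide as a block). For TGFb+IL6 against IL6 it called 1 of 9, Adora2b, at 0.69 ± 0.16 (1.61-fold, adjusted p = 0.0408), and 3.99% of all genes. The Adora2b call was kept in 14 of 27 alternatives and was lost, at 0.55 to 0.87, without any 1 of IL2 array 2, TGFb array 2 or 3, TGFb+IL6 array 1, 2 or 3, or IL6 array 2 or 3.

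The authors' deposited table gives 1 value per probe and condition. Its values correlated with the mean log2 ratios over all probes at 0.711, 0.665, 0.657 and 0.70 in IL2, TGFb, TGFb+IL6 and IL6, with slopes of 1.80, 1.54, 1.78 and 1.87 and column medians of -0.083, -0.054, -0.016 and -0.043. The direction is thus Treg over T-effector, and the scale and centring are not known. In the authors' deposited table Nt5e stands at 0.735, 0.56, 0.242 and 1.989 in that order, Entpd1 at 1.046, 1.544, 0.415 and 1.158, and Adk at -0.468, -0.919, -0.436 and -0.676.

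Beyond the 9 genes, 63 further purine genes were listed, of which 60 were on the array and 50 were tested. TGFb against IL2 gave 4 higher and 2 lower in Treg samples, where 7.74% of all genes were called, and 2 higher and 3 lower in T-effector samples (4.32%). The ATP- and AMP-interconverting kinase Ak4 fell by 0.81 ± 0.13 and 0.95 ± 0.13 (limma adjusted p = 0.000291 and 0.000116), and the nucleoside diphosphatase Entpd5 rose by 0.86 ± 0.15 and 0.64 ± 0.15 (adjusted p = 0.000386 and 0.0126). IL6 added to TGFb gave 5 higher and 1 lower in Treg samples (5.6% of all genes) and 4 higher and 2 lower in T-effector samples (7.42%). Acpp, a phosphatase that can also make adenosine from AMP, rose by 1.05 ± 0.16 in Treg and 1.52 ± 0.16 in T-effector samples (adjusted p = 0.000194 and 1.51e-06). The UDP-sugar receptor gene P2ry14 rose by 1.04 ± 0.17 and 0.79 ± 0.17. TGFb+IL6 against IL6 gave 7 higher and 4 lower in Treg samples (10.1% of all genes) and 5 higher and 4 lower in T-effector samples (11.1%). In T-effector samples the ADP receptor gene P2ry1 was lower by -2.05 ± 0.33 (adjusted p = 0.000211). The interaction, called for 0.925% and 0.98% of all genes, was called for Ak1 in Treg samples (0.61 ± 0.15, adjusted p = 0.0483) and for Acpp in T-effector samples (1.43 ± 0.24, adjusted p = 0.00231). Over this list the median difference was between -0.08 and 0.01 in these 6 comparisons, where that of all genes was between -0.03 and 0.01.

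Between Treg and T-effector samples the same list gave 4 higher and 7 lower of 50 with IL2, 2 and 1 with TGFb, 3 and 0 with TGFb+IL6, and 1 and 5 with IL6. The shares of all genes called were 11%, 5.97%, 5.84% and 5.84%, so the counts with TGFb and TGFb+IL6 were near the background. Pnp, the phosphorylase that breaks down inosine after Ada has made it, was lower in Treg with IL2 by -0.72 ± 0.10 (limma adjusted p = 0.00163). Its ratio was higher by 0.78 ± 0.14 with TGFb than with IL2 (adjusted p = 0.0124). Ak4 was lower in Treg with TGFb by -0.40 ± 0.10 (limma adjusted p = 0.0391). The largest difference with IL6 was that of P2ry1, lower in Treg by -1.26 ± 0.31 (limma adjusted p = 0.0376).

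Across the 26 channels the Nt5e signal was most like those of a probe named NAP101442-1 (r = 0.969), Cradd (0.962) and Pdlim5 (0.957), and Entpd1 was most like Slc4a8 (0.97), Dst (0.966) and Amot (0.963). Adora2a was closest to Diaph1 (0.991), Trp53 (0.988) and 5330438I03Rik (0.985), and Adora2b to Vac14 (0.892), Tbl3 (0.853) and Mst1r (0.847). Ada was closest to Mief1 (0.943), Pask (0.935) and Txn2 (0.933), and Adk to Adh4 (0.935), Btla (0.93) and LOC676015 (0.912). Dpp4 was closest to 2810001G20Rik (0.948), Gpr155 (0.946) and Nacc2 (0.932), P2rx7 to Cyp11a1 (0.914), Prdm1 (0.886) and Cystm1 (0.881), and Slc29a1 to Pycrl (0.906), Slc19a1 (0.899) and Stk39 (0.896). Among the members themselves, Nt5e and Entpd1 had r = 0.806, Entpd1 and Adk r = -0.899, and Nt5e and Adk r = -0.739. These Pearson coefficients describe 26 channels that share 13 arrays, 5 slides and 4 conditions.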

How the data were processed

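The series holds 13 two-colour Agilent arrays in 4 conditions, each with a Treg and a T-effector channel, of RNA from Trizol and RNeasy extraction amplified with Agilent's Low RNA Input kit, per the labels' protocols. Per the file headers, the deposited scanner files give spot and background intensity from Agilent Feature Extraction 9.5.1.1, processed intensity that the software had background-subtracted, detrended and dye-normalized, and a log10 ratio of Cy5 over Cy3, and they place probes on mm7. The authors' deposited value table holds 1 value per probe and condition, which behaves as a log2 ratio and whose processing is not given in the sources used here.

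Mean signals were background-corrected with normexp (offset 50), normalized by loess within arrays and, for separate channels, by Aquantile between arrays, and tested with limma 3.58.1 (statmod 1.5.0) in R 4.3.3 with a dye term. Control spots were given no weight in loess and were left out of the tests. Of 41174 probes, 28922 passed a filter for signal well above background (3 or more of 26 channels). The probe with the highest mean signal stood for each gene, and 19900 genes were tested (an array was missing for 135). Ratios of Treg over T-effector were fitted within arrays, and effects of condition in a separate-channel model of all 13 arrays with an intraspot correlation of 0.452. P-values were adjusted by the Benjamini-Hochberg method over all 19900 genes, and a gene was called at an adjusted p under 0.05. Probes were named through RefSeq by accession (22951), symbol (6659) or synonym (3109), and otherwise kept the file's name (8455). The limma fits were tested on simulated log2 channel signals in which Treg signals with TGFb were changed for known genes. The simulation held no slide or dye effect, and background correction, normalization and the filter were not tested by it.

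All 9 genes are named whatever their test, with the 3 genes most like each and, from the wider purine list, up to 3 called genes of largest change per comparison. The members and lists were chosen with earlier results of these data known. Arrays of TGFb and TGFb+IL6 carry the same numbers 1 to 3 in the labels. Same-numbered arrays deviated together from their group means. The correlations were 0.757, 0.728 and 0.535 for log ratios, 0.697, 0.531 and 0.401 for Treg and 0.85, 0.784 and 0.282 for T-effector signals. Same-numbered arrays also shared a slide (E, B and D) and the dye of the Treg sample. These correlations therefore cannot tell paired samples from a shared slide. The numbers were taken to pair the arrays in the replicate block only. The alternatives changed the background model, subtraction and offset, the use of Agilent's processed signals, the normalization, the dye term, the filter, the set of probes fitted, the spatial trend, slide and replicate blocks, and left out each array. Second probes of a gene were fitted apart from the 27 alternatives. The interaction contrasts and leaving out slide B or E were chosen after seeing the data. One gene of the wider list is not reported here.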

Additional observations from a re-analysis of the deposited data

Results flagged for a closer look

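The Adora2b log2 ratio of Treg over T-effector on TGFb+IL6 array 3, 0.91, lay far from the other arrays of that condition, at 0.52, 0.54 and 0.56. Its gap to the nearest array was 0.897 of the whole range, above the Dixon 95% limit for 4 arrays. This was 1 of 27 groups of 4 arrays examined, and chance flags about 1 in 20. Without that array the ratio was 0.58 and was not called.

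The Adora2b ratio also differed between conditions. It was 0.69 higher with TGFb+IL6 than with IL6 (limma adjusted p = 0.0408, test of the difference itself), with all 4 TGFb+IL6 arrays above all 3 IL6 arrays, and this difference was 0.64 and not called without TGFb+IL6 array 3.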

How the results depend on the processing

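Of 37 calls for the 9 genes, 16 were kept in all 27 alternatives and 23 in each of the 13 that leave out 1 array. The 16 include all 4 Nt5e calls. All 27 alternatives kept the tested probe of each gene. The 16 thus also include the Entpd1 call for TGFb against IL2 in Treg samples, which was lost at 0.40 on the second Entpd1 probe. Of the 37 calls, 1 changed sign: the P2rx7 ratio with IL6 was -0.084 ± 0.177 and not called with median centring of the arrays. Estimates outside the 37 also changed sign over the alternatives, such as the change of the Adk ratio from IL2 to TGFb (-0.51 to 0.71). The replicate block made 2 calls, Nt5e for the ratio with IL6 (0.955) and Dpp4 in Treg samples for TGFb+IL6 against TGFb (0.635), lost 1, Entpd1 for the ratio with IL6 (0.483), and changed no other call of the 9 genes.

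Some counts of called members moved by more than 1.5 times. Under Agilent's processed signals the ratio gave 5 with IL2 and 6 with IL6, its differences gave 3 for TGFb against IL2 and 4 for TGFb+IL6 against IL6, Treg samples gave 1 for TGFb+IL6 against TGFb, and T-effector samples gave 0 for IL6 against IL2 and 1 for the interaction. Under median centring or quantile normalization the ratios gave 6, 1, 0 and 6 in IL2, TGFb, TGFb+IL6 and IL6, the same 2 differences 3 and 4, and T-effector samples 0 for IL6 against IL2 and 1 for the interaction. With the spatial trend removed, the ratio gave 6 with IL2 and 6 with IL6, the 2 differences 4 and 2, and each interaction 1. When the background model used all spots, the ratio gave 1 with IL2 and 1 with TGFb, the difference of TGFb+IL6 against IL6 gave 0, and so did IL6 against IL2 in T-effector samples. With no background subtraction that ratio difference gave 0 and the T-effector interaction 1. With no offset they gave 0 for the ratio difference, 1 for TGFb+IL6 against TGFb in Treg samples and 0 for IL6 against IL2 in T-effector samples. With no dye term the ratio difference gave 0. With no filter, or each probe on its own, IL6 against IL2 in T-effector samples gave 0. Slide as a block gave 2 for the ratio difference of TGFb against IL2 and 0 for IL6 against IL2 in T-effector samples. Without slide B, which leaves 2 arrays each of TGFb and TGFb+IL6, the ratios gave 1, 1, 0 and 1, the ratio difference of TGFb+IL6 against IL6 0, Treg samples 1 for TGFb+IL6 against TGFb and 3 for TGFb+IL6 against IL6, and T-effector samples 2 for TGFb+IL6 against TGFb and 0 for IL6 against IL2. Without slide E, which leaves 1 IL6 array that is assumed to vary like the other groups, the ratio gave 4 with IL2, Treg samples 1 and 2 for TGFb+IL6 against TGFb and against IL6, and T-effector samples 0 for IL6 against IL2 and 3 for TGFb+IL6 against IL6. The cause of these changes was not tested.

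Leaving out 1 array at a time, the ratios gave 1 to 3, 1 to 2, 1 to 4 and 1 to 4 calls in IL2, TGFb, TGFb+IL6 and IL6. Their differences gave 0 to 1 for TGFb against IL2, 0 to 0 for TGFb+IL6 against TGFb and for IL6 against IL2, and 0 to 2 for TGFb+IL6 against IL6. In the order TGFb against IL2, TGFb+IL6 against TGFb, IL6 against IL2 and TGFb+IL6 against IL6, Treg samples gave 4 to 5, 1 to 3, 1 to 2 and 4 to 5, and T-effector samples 2 to 4, 4 to 4, 0 to 1 and 4 to 6. The interactions gave 0 to 1 and 0 to 2.

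Over all genes, calls ranged over the alternatives from 404 to 9704 for the ratio with IL2, 201 to 3377 with TGFb, 156 to 3621 with TGFb+IL6 and 167 to 9015 with IL6. Median centring shifted the all-gene median by up to 0.451 for a ratio difference and turned the 1475 higher and 709 lower genes of the IL2 ratio to 1224 and 8480. Calls ranged from 1000 to 2329 for TGFb against IL2 in Treg samples and from 456 to 1437 in T-effector samples. Low signal limits the second Nt5e and Entpd1 probes, for which bounds are given.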
